A study of Mus musculus with 9 samples.

Results

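The 7 genes Cdx2, Elf5, Tfap2a, Tfap2c, Gata2, Gata3 and Hand1 encode transcription factors of the trophoblast, the outer lineage of the early embryo that builds the placenta. They were taken by name from 18193 genes with a probe set on the array. All 7 were measured, by 15 probe sets in all, and each gene is described by its brightest probe set on average, with the others as a check.

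In the mouse blastocyst the caudal-type homeobox factor Cdx2 is switched on in outer cells and holds down the pluripotency factor Oct4 there, while Oct4 and Nanog hold down Cdx2 in the inner cells. Gata3 acts beside Cdx2 downstream of the Hippo effector Tead4. Tfap2c (AP-2 gamma) and the ETS factor Elf5 maintain trophoblast stem cells, and Gata2 and Hand1 act as these cells turn into trophoblast giant cells. Most of these factors also work elsewhere. Tfap2a and Tfap2c act in surface ectoderm and neural crest, Tfap2c in naive pluripotent and primordial germ cells, Gata2 in blood, Hand1 in lateral and extraembryonic mesoderm, and Cdx2 in the posterior embryo.

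The arrays held RNA of 3 groups of mouse cells, each with 3 cultures that the labels call biological replicates, and all labelled as strain C57BL/6. The vehicle group was epiblast stem cells (EpiSCs), pluripotent cells of the postimplantation or primed kind, kept with vehicle in N2B27 containing 20 ng/ml Activin A plus 12 ng/ml bFGF on gelatine and serum-coated plates. The IWP2 group was EpiSCs in the same medium with IWP2, which blocks the acyltransferase Porcupine and so the secretion of Wnt proteins by the cells. The ESC group was embryonic stem cells, of the earlier, naive kind, on gelatine in N2B27 containing 1000 U/ml LIF plus 250 ng/ml Wnt3a. Cell type and medium therefore changed together between ESCs and EpiSCs, and their parts cannot be told apart. The dose and duration of IWP2 and the number of cell lines per group are not stated in the labels, and p-values measure the spread between these cultures only.

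Arrays of 1 group correlated at 0.997 to 0.998 over all probe sets. The naive marker list was higher by at least 2-fold in ESCs than in vehicle EpiSCs for 8 of 8 genes, led by Zfp42 (10.44 on the log2 scale), Nr0b1 (8.74) and Tbx3 (6.98). Of the primed marker list 7 of 8 genes were lower, led by Fgf5 (-7.58), Pou3f1 (-5.22) and Otx2 (-4.25), and Foxd3 was higher (1.49). No array went against its label on these markers. Values are log2 signals without detection calls. Over all probe sets and arrays the lower quartile was 3.72 and the median 5.24, and these marks serve below to show how near a signal lay to the bottom of the array's scale. The number of arrays, 3 per group, limits the precision.

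Promoter sequences of RefSeq (assembly GRCm38.p6, from 250 bases before to 50 after a transcript start) were at hand for 5 of the 7 genes, in 8 windows. A pair is shown: Gata3, because the main results turn on its fall with IWP2, and Cdx2, because Oct4 is known to act on it. Both strands were searched for the TCF/LEF motif CTTTGA, the AP-2 motif GCCNNNGGC, the GATA motif AGATAA, the TEAD motif GGAATG and the octamer ATGCAAAT that Oct4 binds. Capitals mark the matches, none of which overlap. The Gata3 window is chr2:9878551-9878850 and the Cdx2 window chr5:147307200-147307499, both on the minus strand and written 5′ to 3′ along the gene.
Gata3: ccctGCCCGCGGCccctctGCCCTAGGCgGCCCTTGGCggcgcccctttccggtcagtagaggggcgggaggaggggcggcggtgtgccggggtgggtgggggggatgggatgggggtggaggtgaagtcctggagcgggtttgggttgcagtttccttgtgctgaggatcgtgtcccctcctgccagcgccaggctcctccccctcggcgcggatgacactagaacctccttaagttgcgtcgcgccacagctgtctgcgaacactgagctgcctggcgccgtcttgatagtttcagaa
Cdx2: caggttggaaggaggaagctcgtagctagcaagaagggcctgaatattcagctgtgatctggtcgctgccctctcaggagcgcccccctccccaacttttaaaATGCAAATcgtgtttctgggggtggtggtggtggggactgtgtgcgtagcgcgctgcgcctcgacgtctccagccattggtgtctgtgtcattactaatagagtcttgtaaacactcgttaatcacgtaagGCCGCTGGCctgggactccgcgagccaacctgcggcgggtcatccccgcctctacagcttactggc

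The Gata3 window held 3 AP-2 matches, all in its first part, far upstream of the start, and none of the other motifs. Of all 32851 windows of this length in the table, 16.6% held an AP-2 match and 0.444% held at least 3. The cut of 3 was taken from the Gata3 window itself. Every fixed letter of the motif is G or C, the Gata3 window was 67.3% G or C, and the shares were not matched for this. The Cdx2 window held 1 octamer, which 1.74% of all windows had, and 1 AP-2 match. A Gata2 window also held 1 AP-2 match. None of the 8 windows at hand held the GATA motif, against 11.2% of all windows. Tfap2c and Hand1 had no window to search. The TCF/LEF motif lay in 1 of the 2 Elf5 windows, against 16% of all windows, and the TEAD motif in 1 Elf5 and 1 Gata2 window, against 14.7%. The 2 Tfap2a windows held none of the 5 motifs. A match is a string of letters and was not tested as a binding site.

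With Wnt secretion blocked, Gata3 fell about 4-fold and none of the other 6 factors passed the test by its brightest probe set, though Tfap2c fell by 0.41 on the log2 scale and was called when its probe sets were averaged. In ESCs Tfap2c was 19.1-fold higher than in vehicle EpiSCs and the mean of Gata3 was 3.65, as it was in IWP2-treated EpiSCs. Cdx2, Gata2, Tfap2a and Hand1 were higher in ESCs by less than 2-fold, and Elf5 lay under the lower quartile of the array in every group. By its brightest probe set, the mean of 1 of the 7 genes, Gata3, reached the array median in vehicle EpiSCs. That of 0 did so in IWP2-treated EpiSCs and those of 3 in ESCs (Tfap2c, Cdx2 and Gata2). The second probe sets of Cdx2 (4.29) and Gata2 (4.10) stayed under the array median in ESCs.

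**Figure D1:**
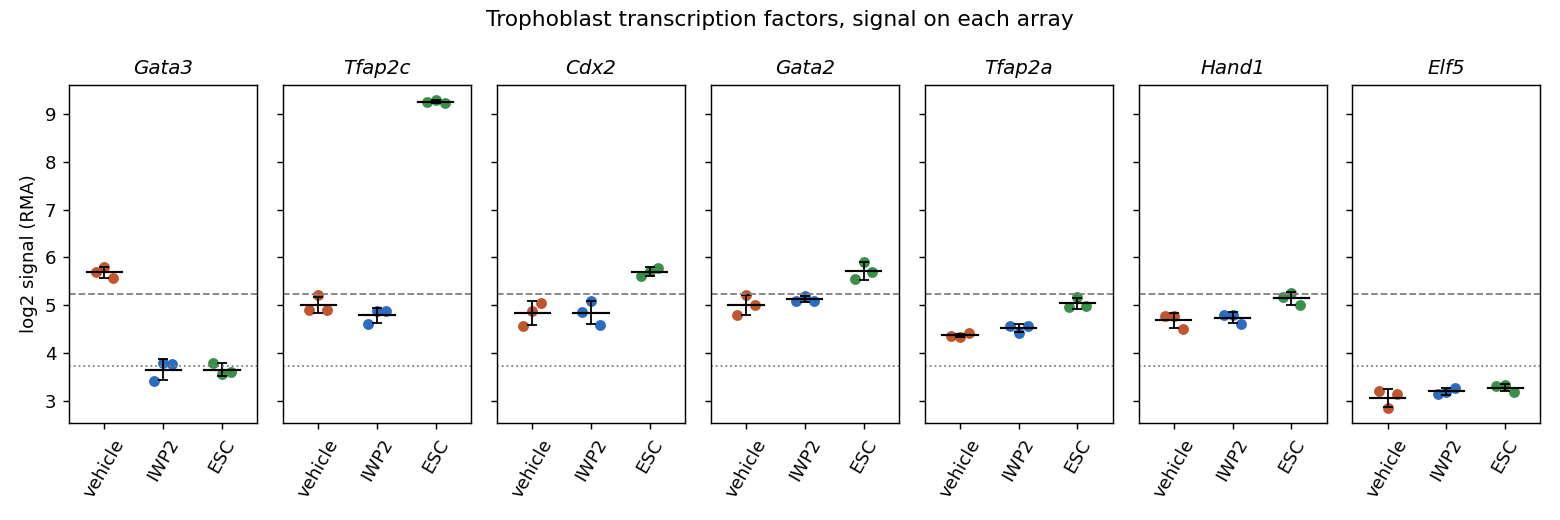
Log2 signal of the 7 trophoblast transcription factors on each array, by group (vehicle EpiSC, IWP2 EpiSC, ESC). Points are arrays, bars the mean and SD of 3 arrays, and the dotted and dashed lines the lower quartile (3.72) and median (5.24) of all probe sets. Gata3 is higher on the vehicle arrays than on the other 6, Tfap2c is higher on the ESC arrays than on the other 6, and Elf5 stays below the dotted line on all 9 arrays.

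Gata3 (gene on chromosome 2, 9857078 to 9887953 in GRCm38.p6) encodes a zinc-finger factor of trophectoderm, also known from surface ectoderm, kidney duct and T cells. On the vehicle arrays its signal was 5.69, 5.80 and 5.57. On the IWP2 arrays it was 3.41, 3.78 and 3.77. On the ESC arrays it was 3.80, 3.55 and 3.60. The vehicle arrays thus stood apart from the other 6, while the IWP2 and ESC arrays overlapped around the lower quartile of the array.

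The group means of Gata3 were 5.69 ± 0.117 with vehicle, 3.65 ± 0.212 with IWP2 and 3.65 ± 0.131 in ESCs (SD, n = 3). The fall with IWP2 was 2.03 ± 0.113 on the log2 scale (SE), or 4.1-fold with a 95% interval of 3.44 to 4.88 (limma adjusted p = 8.34e-07). ESCs differed from vehicle EpiSCs by -2.04 ± 0.113. These comparisons share the vehicle arrays and so do not bear each other out. ESCs and IWP2-treated EpiSCs differed by -0.005 ± 0.113, with a 95% interval of -0.26 to 0.25 (limma adjusted p = 0.973). Gata3 has 1 probe set, so no other probe set could check it, and once 32 was added to every linear signal its fall with IWP2 shrank to 0.90 and stayed called (limma adjusted p = 4.14e-07). In such bulk RNA, fewer cells with the transcript and less of it per cell cannot be told apart.

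Tfap2c (chromosome 2, 172545678 to 172558622) encodes AP-2 gamma, needed for trophoblast and present in naive pluripotent and germ cells. Its signal was 4.90, 5.21 and 4.90 on the vehicle arrays and 4.60, 4.88 and 4.87 on the IWP2 arrays. On the ESC arrays it was 9.25, 9.28 and 9.23. All 3 ESC arrays lay far above the EpiSC arrays, and each IWP2 array lay below each vehicle array by a margin smaller than the spread within the groups.

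ESCs exceeded vehicle EpiSCs in Tfap2c by 4.25 ± 0.10 (SE), or 19.1-fold with a 95% interval of 16.3 to 22.3 (limma adjusted p = 2.31e-10). Against IWP2-treated EpiSCs the difference was 4.47 ± 0.10, or 22.2-fold. With an offset of 32 the difference from vehicle shrank to 3.33 and stayed called. The other 2 probe sets gave 3.63 and 4.60 for ESC minus vehicle. They parted for IWP2. The probe set in use (1448977_at) differed by -0.22 ± 0.10 and was not called (limma adjusted p = 0.128), and 1418147_at differed by -0.19 and was not called either. The third, 1436392_s_at, fell from 4.46, 4.50 and 4.10 on the vehicle arrays to 3.56, 3.51 and 3.50 on the IWP2 arrays, by 0.83 ± 0.103 (limma adjusted p = 0.00022 over all probe sets). Taken as the mean of its 3 probe sets, Tfap2c fell by 0.41 with IWP2 and was called (limma adjusted p = 0.00347). The ending _s_at means that the probes may also match other transcripts.

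Tfap2a (chromosome 13, 40713802 to 40738238) encodes AP-2 alpha, a factor of surface ectoderm and neural crest as well as of trophoblast. It read 4.36, 4.34 and 4.41 with vehicle and 4.57, 4.42 and 4.57 with IWP2. ESC arrays read 4.97, 5.16 and 4.97 and lay above all EpiSC arrays. The IWP2 difference was 0.15 ± 0.071 (limma adjusted p = 0.131), and ESCs exceeded vehicle EpiSCs by 0.67 ± 0.071 (limma adjusted p = 1.71e-05). Of its other 2 probe sets, 1421995_at gave 0.23 for ESC minus vehicle and 1426048_s_at gave 0.52, and both were called. The AP-2 genes thus both were higher in ESCs, Tfap2c 19.1-fold and Tfap2a 1.59-fold.

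Gata2 (chromosome 6, 88193891 to 88207032), which encodes a factor of trophoblast giant cells and blood progenitors, had signals of 4.79, 5.21 and 5.01 with vehicle, 5.08, 5.20 and 5.08 with IWP2, and 5.54, 5.91 and 5.69 in ESCs. Vehicle and IWP2 arrays overlapped and the ESC arrays lay above both. The IWP2 difference was 0.12 ± 0.116, with a 95% interval of -0.14 to 0.38. ESCs exceeded vehicle EpiSCs by 0.71 ± 0.116 (limma adjusted p = 0.000375). The second probe set gave 0.44, from a mean of 3.67 with vehicle to 4.10 in ESCs.

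Cdx2 (chromosome 5, 147300900 to 147307249), the homeobox factor that defines trophectoderm, read 4.55, 4.89 and 5.04 with vehicle. With IWP2 it read 4.86, 5.08 and 4.59, and in ESCs 5.60, 5.72 and 5.78. The EpiSC groups overlapped and differed by 0.01 ± 0.143 (95% interval -0.31 to 0.33). ESCs were higher than vehicle EpiSCs by 0.87 ± 0.143, or 1.83-fold (limma adjusted p = 0.000391). The second probe set, 1422074_at, rose far less, by 0.21, from a mean of 4.09 with vehicle to 4.29 in ESCs (limma adjusted p = 0.0423 over all probe sets), so the probe sets of Cdx2 disagreed in size.

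Hand1 (chromosome 11, 57828713 to 57832147), a basic helix-loop-helix factor of giant cells and of lateral mesoderm, read 4.78, 4.77 and 4.50 with vehicle, 4.80, 4.80 and 4.61 with IWP2, and 5.16, 5.26 and 4.997 in ESCs. The ESC arrays lay above the others by a narrow margin. The ESC minus vehicle difference was 0.46 ± 0.099 (limma adjusted p = 0.00241), and the second probe set gave 0.60. Its ESC minus IWP2 difference of 0.40 was called (limma adjusted p = 0.0053) but not after arrays were centred on low-signal genes, a setting added after seeing the data (0.23, limma adjusted p = 0.0754).

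Elf5 (chromosome 2, 103412098 to 103450989) encodes an ETS factor that trophoblast stem cells express and that DNA methylation is known to silence in embryonic stem cells. Its signal lay between 2.85 and 3.33 on all 9 arrays, under the lower quartile. The groups overlapped, and no comparison was called for this probe set. The second probe set, 1419555_at, differed by -0.16 with IWP2 and was not called, against 0.14 for the first, and was higher in ESCs than with IWP2 by 0.23 (limma adjusted p = 0.0329 over all probe sets). ESC minus vehicle was 0.21 ± 0.092 (limma adjusted p = 0.0622). That call was gained with median centring and without vehicle replicate 1, at adjusted p of 0.0389 and 0.0302.

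Counted together, limma called 1 of the 7 factors lower and 0 higher with IWP2, against 16.8% and 16.6% of all genes, and at an unadjusted p under 0.05 these counts were the same. Gata3 fell by at least 2-fold, as did 2.81% of all genes. Vehicle and IWP2 arrays did not overlap for 1 factor that was higher (Tfap2a) and 2 that were lower (Gata3 and Tfap2c), against 24.7% and 22.2% of all genes. The 6 factors not called had differences of -0.22 to 0.15, and their 95% intervals together spanned -0.44 to 0.38. The median of the 7 was 0.06, against 0.03 over all genes. For ESC minus vehicle, 5 of 7 were called higher and 1 lower, against 38.7% and 27.9% of all genes. By at least 2-fold 1 was higher and 1 lower, against 6.87% and 9.63% of all genes. Array values did not overlap between these groups for the same 5 higher and 1 lower factors, which 41.6% and 29.4% of all genes also showed. For ESC minus IWP2, 5 were called higher and 0 lower, against 35.2% and 26.9% of all genes, and 0 were lower at an unadjusted p under 0.05. Of these Tfap2c alone was higher by at least 2-fold, as were 7.87% of all genes. The arrays did not overlap for those 5, and for 0 factors that were lower, against 38.2% and 28.9% of all genes. Of the 15 probe sets, 10 were called higher in this comparison and 5 were not called. Among the latter were 1422074_at of Cdx2 (0.12), 1428816_a_at of Gata2 (0.23) and 1421995_at of Tfap2a (0.15). With a gene's probe sets averaged, the same 5 factors were called higher.

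Small differences in ESCs have to be read against a shift of low signals. The lower quartile ran from 3.664 to 3.692 in EpiSCs but from 3.788 to 3.801 in ESCs. Of the 6275 genes whose mean stayed under the array median in every group, 39.8% were called higher in ESCs than in vehicle EpiSCs and 6.42% lower, with a median difference of 0.20 a 10th percentile of -0.12 and a 90th of 0.49, against a median of 0.12 over all genes. Elf5 (0.21) lay at that median and Hand1 (0.46) between those percentiles, and Tfap2a (0.67) above it. After each array was centred on these genes, ESC minus vehicle was 0.67 for Cdx2, 0.51 for Gata2, 0.46 for Tfap2a, 0.26 for Hand1 and 4.05 for Tfap2c, all still called, Hand1 at an adjusted p of 0.0498. With an offset of 32 the 5 differences were 0.47, 0.40, 0.30, 0.22 and 3.33.

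**Figure D2:**
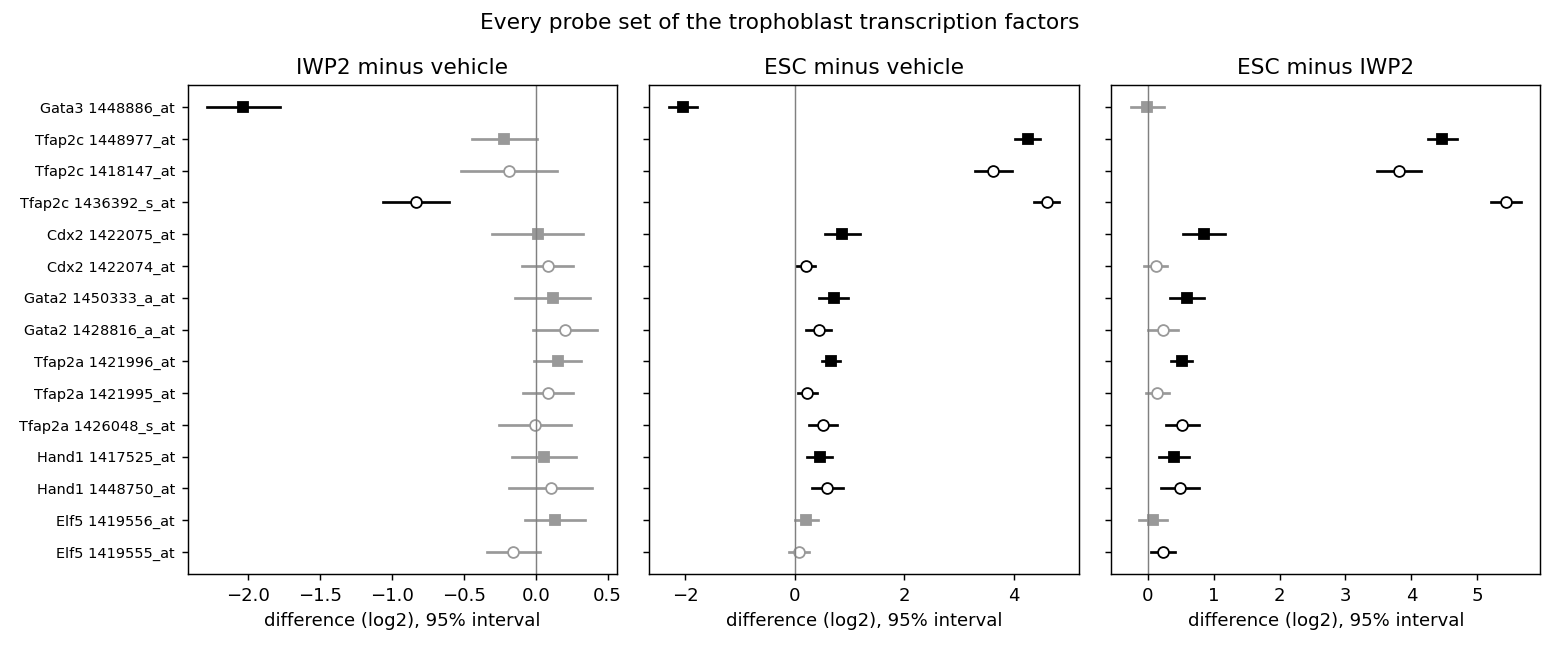
Difference on the log2 scale for each of the 15 probe sets, with its 95% interval, in the 3 comparisons. Squares are the probe sets used, open circles the others, black those with a limma adjusted p under 0.05 over all probe sets and grey the rest. With IWP2 the Gata3 probe set and 1 of 3 Tfap2c probe sets are black and left of 0, and in ESC minus vehicle 12 are black and right of 0.

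Gene families put the members beside their closest relatives. Of 15 measured relatives, 3 fell with IWP2 and 0 rose by limma's adjusted p, against 16.8% and 16.6% of all genes. The counts of relatives were the same at an unadjusted p under 0.05. Gata6, the factor of primitive and definitive endoderm, fell from a mean of 8.28 to 4.29, by 3.99, next to the fall of Gata3. Gata1 (-0.33) and the ubiquitous ETS gene Elf1 (-0.33) fell slightly, and Gata4 (-0.22) and Gata5 (0.21) were not called. In the other families Cdx1 (0.00), Cdx4 (-0.05), Hand2 (0.21), Tfap2b (0.13), Tfap2d (0.15), Tfap2e (0.15), Elf2 (-0.09), Elf3 (-0.11), Elf4 (0.20) and Ehf (0.05) were not called.

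In ESCs 8 relatives were higher than in vehicle EpiSCs and 1, Gata6 (-3.89), lower, against 38.7% and 27.9% of all genes. The epithelial ETS gene Elf3 (1.54), Cdx1 (1.11) and Elf1 (1.07) were higher by at least 2-fold. Cdx4 (0.55), Ehf (0.53), Tfap2b (0.35), Gata5 (0.32) and Hand2 (0.30) were called with smaller differences, from means of 2.44 to 4.62 in vehicle EpiSCs. Among the AP-2 genes Tfap2c alone passed 2-fold, and Tfap2d and Tfap2e were not called. Hence Gata3 and Gata6 were the GATA genes with lower signal in ESCs, Gata2 and Gata5 were higher, and Gata1 and Gata4 were not called.

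Of other transcription factors of the trophoblast, 17 of 18 listed were analysed. With IWP2 8 fell and 1 rose, against 16.8% and 16.6% of all genes. The other 8 did not pass, and the median of the 17 was -0.18. Eomes, the T-box factor of trophoblast stem cells and of the primitive streak, fell by 3.62, the helix-loop-helix inhibitor Id2 by 1.81, the epithelial zinc-finger gene Ovol2 by 1.59 and Klf5 by 1.15. Sox21 (-0.85), the spongiotrophoblast factor Ascl2 (-0.71), Ets2 (-0.30) and Msx2 (-0.25) fell less, and Bhlhe40 rose by 1.2. Tead4, the Hippo effector upstream of Cdx2 and Gata3, differed by -0.15 and was not called. Nor were Arid3a (-0.18), Dlx3 (-0.06), Esrrb (0.16), Pparg (0.14), Rhox6 (0.30), Rhox9 (0.09) and Tfeb (0.05).

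Between ESCs and vehicle EpiSCs 9 of the 17 were higher and 5 lower, against 38.7% and 27.9% of all genes. Klf5 (3.77), the homeobox genes Rhox6 (3.34) and Rhox9 (2.42), and Esrrb (3.27), which naive cells and trophoblast stem cells both use, were higher together with Tfeb (1.26), Ets2 (1.12), Tead4 (0.82), Sox21 (0.35) and Msx2 (0.17). Eomes (-2.91), Ovol2 (-2.25), Bhlhe40 (-1.63), Id2 (-1.38) and Arid3a (-0.23) were lower. Ascl2 (-0.13), Dlx3 (0.04) and Pparg (0.17) were not called.

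Trophoblast structural and secreted genes, of which 17 of 26 listed were analysed, gave 6 falls, 5 of them by at least 2-fold, and 2 rises with IWP2. Over all genes 16.8% fell, 2.81% by at least 2-fold, and 16.6% rose. The simple epithelial keratins led, with Krt8 falling by 4.81, Krt19 by 4.50 and Krt7 by 3.19, and Cdh3 (0.96) and Phlda2 (0.76) rose. Keratins of this kind are shared with endoderm and other simple epithelia. Plet1, a gene of trophoblast progenitors named outside the rule after its values were seen, had a mean of 7.09 with vehicle and fell by 2.25 with IWP2, and the cell cycle inhibitor gene Cdkn1c fell by 0.43. The placental markers Tpbpa, Ctsq and Ctsj, also named outside the rule after their values were seen, were not called for IWP2. Plac1 (0.007) and Peg10 (-0.12) were not called either, while Phlda2 and Cdkn1c of the same list were. Tpbpa, of spongiotrophoblast, had a mean of 3.78 with vehicle and 3.95 with IWP2, Ctsq 4.49 and 4.35, and Ctsj 2.39 and 2.39. In ESCs 6 of the 17 were higher than with vehicle, led by Lgals3 (6.50), Cdkn1c (2.70) and Wnt7b (0.52), and 7 lower, led by Krt8 (-6.73), Krt18 (-6.57) and Krt19 (-4.62). Over all genes 38.7% were higher and 27.9% lower.

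**Figure D3:**
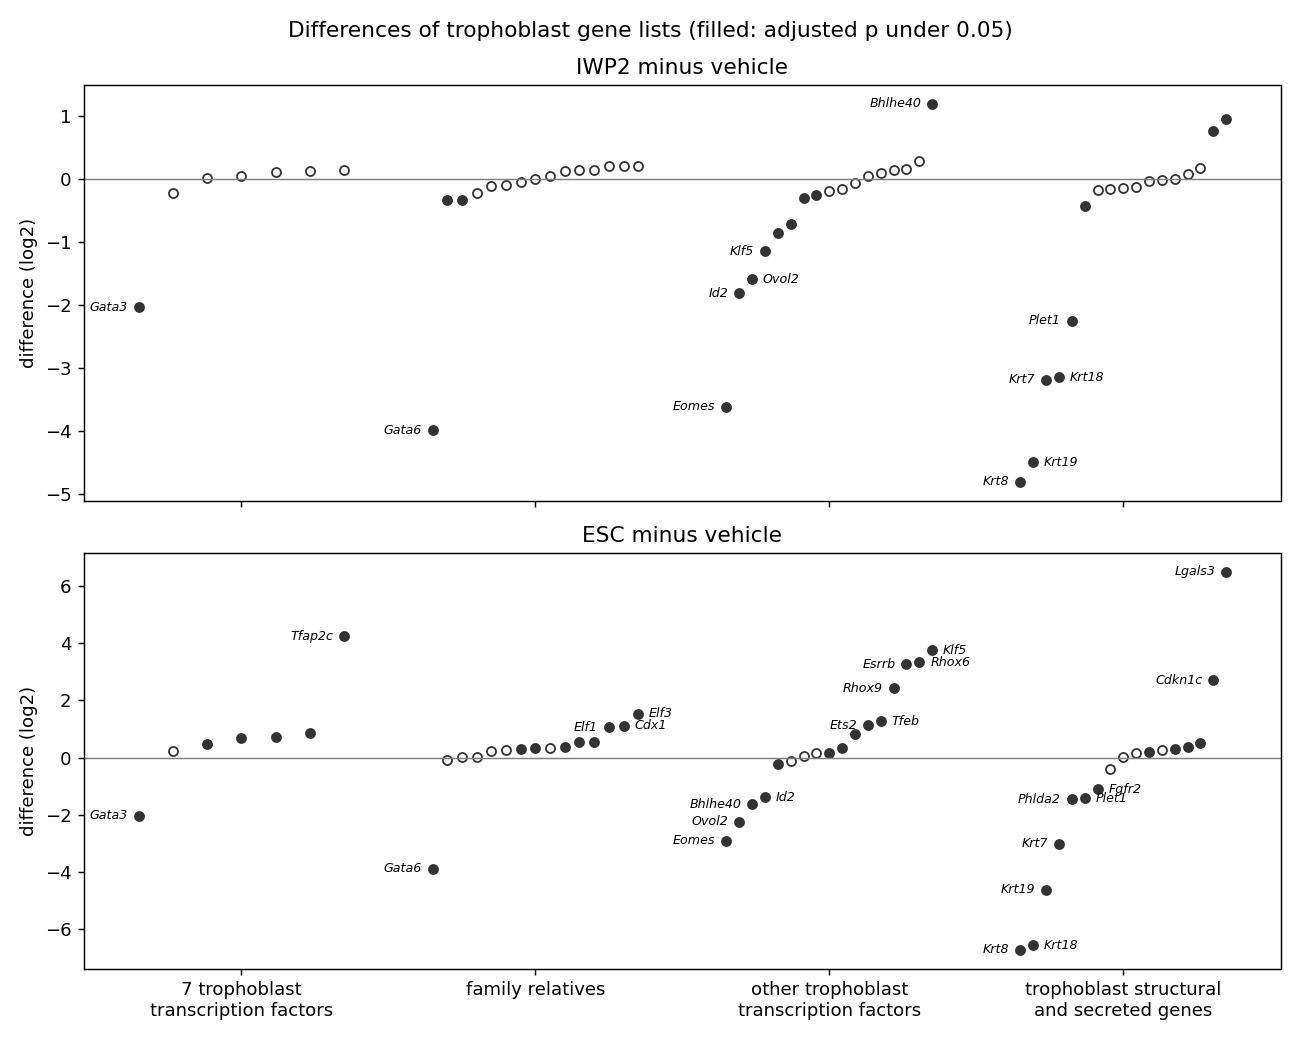
Difference on the log2 scale of each measured gene in the 4 lists, for IWP2 minus vehicle (top) and ESC minus vehicle (bottom), with separate vertical scales. Filled points have a limma adjusted p under 0.05, and called genes with a difference of at least 1 are named. Gata3 is the 1 filled point among the 7 factors in the top panel, and of these 7 Tfap2c and Gata3 lie farthest from 0 in the bottom panel.

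Marker lists of cell types that could hold these factors were set beside the fall of Gata3 and the level of Tfap2c. The summed linear signal of the 17 trophoblast structural and secreted genes was 12163 to 14918 on vehicle arrays and 1831 to 2067 on IWP2 arrays. Krt8 and Krt18, with log2 means of 12.82 and 12.17 with vehicle, made up most of the vehicle sum. Of the 17, 6 were called lower with IWP2, 2 higher and 9 not called. Surface ectoderm genes summed to 1180 to 1229 and 732 to 811. Of 11, 4 were lower with IWP2, led by Perp (-0.88), Grhl3 (-0.63) and Grhl2 (-0.50), and 0 higher by limma's adjusted p or at an unadjusted p under 0.05. The epidermal genes Trp63 (-0.01), Krt5 (0.03) and Krt14 (-0.04), named outside the rule as defining markers, were not called. Lateral and extraembryonic mesoderm genes summed to 437 to 474 and 343 to 352. Of 12, 5 were lower, led by Postn (-1.75), Isl1 (-1.19) and Bmp4 (-0.86). Postn is counted in the fibroblast and feeder list too, so these lists are not separate. Blood and endothelium genes summed to 320 to 360 and 353 to 374, with 5 of 12 group means under the lower quartile in both EpiSC groups, Lmo2 higher (0.47) and Gata1 (-0.33) and Runx1 (-0.23) lower. Fibroblast and feeder genes summed to 578 to 806 and 397 to 466. Of 8, 3 were lower, Col3a1 (-2.30), Postn (-1.75) and Col1a2 (-0.90), and 2 higher, Dcn (0.78) and Thy1 (0.72). Over all genes 16.8% were called lower with IWP2 and 16.6% higher. The part of any of these cell types in the fall of Gata3 was not tested.

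Beside the level of Tfap2c in ESCs stood germ cell genes. Of these 6 of 7 were higher than in vehicle EpiSCs, each by at least 2-fold (6.87% of all genes), and 1 lower. Prdm14 (6.68), Dppa3 (4.71) and Ifitm3 (4.36) led, and Prdm1 differed by -0.95. Their summed linear signal was 4955 to 5111 on ESC arrays and 680 to 795 on vehicle arrays. Prdm14 and Dppa3 belong to the naive list as well, which summed to 21083 to 21689 on ESC arrays and 201 to 213 on vehicle arrays. Their part in the level of Tfap2c was not tested.

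Genes with the pattern most like that of a member were found by Pearson's r over the 9 arrays, which fall into 3 groups, so that r mostly tracks the differences between groups. For Gata3 these were the endoderm factor gene Sox17 (r = 0.997), the steroid dehydrogenase gene Hsd11b2 (0.996) and the Rab GTPase-activating protein gene Rabgap1l (0.995). Chosen for their likeness to Gata3, they share its pattern by selection. They were lower with IWP2, with differences of -3.35, -3.04 and -1.73, and had close means in IWP2-treated EpiSCs and ESCs (4.45 and 4.64 for Sox17). For Tfap2c they were Zfp59 (r = 0.999), the Polycomb partner gene Mtf2 (0.999) and Frrs1 (0.999), higher in ESCs than in vehicle EpiSCs by 2.57, 1.36 and 2.77. For Gata2, Mob3c (0.987), Hrct1 (0.985) and Inpp5k (0.981) came closest. For Cdx2 the closest were Dcaf13 (0.981), Wdfy4 (0.980) and Hapln3 (0.978), with ESC minus vehicle differences of 0.34, 0.81 and 0.25.

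**Figure D4:**
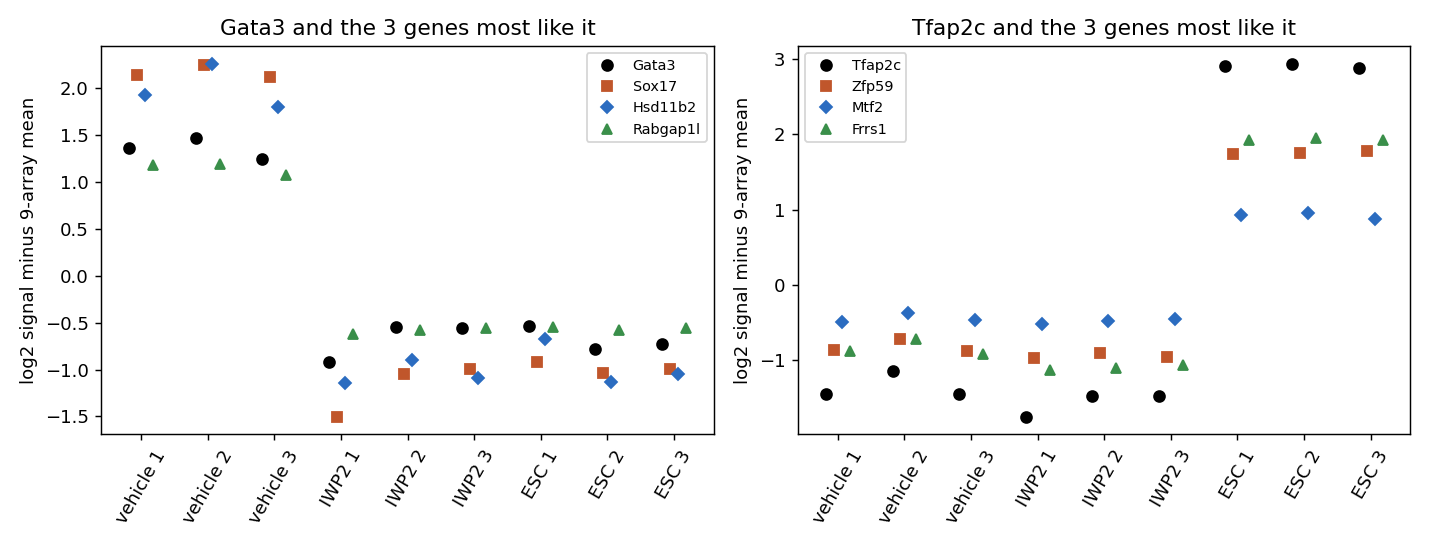
Log2 signal minus the mean over 9 arrays for Gata3 (left) and Tfap2c (right) and the 3 genes of highest Pearson's r with each, on every array. Gata3 and its 3 like genes are high on the vehicle arrays and level between IWP2 and ESC arrays, and Tfap2c and its like genes are high on the ESC arrays.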

How the data were processed

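Each of 9 mouse cell cultures gave RNA for 1 Affymetrix Mouse Genome 430 2.0 array (per the labels). The authors deposited log2 values of 45101 probe sets, made with RMA according to the submitters' processing notes. RMA corrects background, quantile-normalizes and summarises probes. The notes also list limma, and give no versions. Such values carry no detection calls and cannot show a change of total RNA per cell.

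Of the probe sets, 34945 had 1 gene symbol in the platform annotation, 932 had several, 9160 had none and 64 were controls. Each of 18193 genes was represented by its brightest probe set on average. Group means were fitted to all 9 arrays with limma 3.58.1 in R 4.3.3 (lmFit and eBayes). Tests were two-sided. A gene was called at an adjusted p under 0.05 (Benjamini-Hochberg, all genes within 1 comparison). Single probe sets were fitted among all 34945. The members, lists and naming rule were chosen with earlier results of these data known. All members, family relatives and other trophoblast factors were named, and of other lists up to 3 called genes a direction, apart from those said to lie outside that rule. For members reaching the median signal in a group, the 3 genes of highest Pearson's r over the arrays were named.

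In data simulated for IWP2 minus vehicle (18193 genes, 50 changed per size), limma called 30% at a log2 change of 0.3, 64% at 0.5, 96% at 1 and 100% at 2. Of all calls there, 1.36% were of unchanged genes. Far fewer genes were changed in the simulation than the 6094 called in the real comparison. The adjusted p threshold was therefore harder to pass there, and these shares do not give the detection rate of the real comparison.

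Alternatives covered the probe set rule, low signal, offset, scaling, variance model, arrays fitted, a replicate block, the threshold and leaving out each array. The labels give no batch, scan dates were not used here, and same-numbered arrays did not deviate together.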

Additional observations from a re-analysis of the deposited data

How the results depend on the processing

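The fall of Gata3 with IWP2 and the higher Tfap2c of ESCs were called under all alternatives and without any single array. The range without 1 array was 1 to 1 factor lower for IWP2 minus vehicle, 5 to 6 higher for ESC minus vehicle and 5 to 5 higher for ESC minus IWP2. Averaging a gene's probe sets gave 2 factors lower with IWP2 (Gata3 and Tfap2c). The filter on low signal kept Gata3 only through its vehicle mean, and Tfap2c, Cdx2 and Gata2 only through their ESC means. These are the groups where they were high, so calls under this filter are no separate check of them. It left 3 higher in ESCs in both comparisons by testing fewer genes. Differences that changed sign were near 0 and not called. For IWP2 minus vehicle these were Elf5 by the mean of probe sets (-0.010), Cdx2 by cyclic loess (-0.032) and by centring on low-signal genes (-0.017), a setting chosen after seeing the data. For ESC minus IWP2 they were Elf5 by repeated quantile normalization (-0.018), cyclic loess (-0.019) and low-signal centring (-0.094), and Gata3 by median centring (0.0089). Without 1 array, IWP2 minus vehicle ran from -0.12 to 0.14 for Cdx2 and from -0.035 to 0.12 for Hand1, and ESC minus IWP2 from -0.13 to 0.059 for Gata3. The cause was not tested. Replicate numbers pair no arrays in the labels. Deviations of same-numbered arrays correlated at -0.06 to 0.05, and 2 of 9 arrays were closest to their own number. The replicate block left 1 factor lower with IWP2 and 5 higher and 1 lower for ESC minus vehicle, and called 5754 genes for IWP2 minus vehicle against 6094. Signals near the lower quartile limit what can be said of Elf5 in all groups and of Gata3 in IWP2-treated EpiSCs and ESCs.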

Other observations

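BMP ligands and response genes, signals that favour trophoblast and amnion fates in other settings, fell with IWP2 for 9 of 11 genes, and 1 rose. Over all genes 16.8% fell and 16.6% rose. The ligand gene Bmp2 (-6.27) and the target genes Id3 (-3.69) and Id1 (-2.10) led the falls, and the inhibitory Smad gene Smad7 rose by 0.25. Their summed linear signal ran from 3574 to 3623 with vehicle, from 982 to 1059 with IWP2 and from 2396 to 2484 in ESCs. In ESCs 4 were higher than with vehicle, led by Bmp4 (3.05), Smad7 (1.13) and Msx1 (0.27). Lower were 6, led by Bmp2 (-6.11), Id1 (-2.19) and Id2 (-1.38). Over all genes 38.7% were higher and 27.9% lower. Bmp4 and Msx1 are also counted in the mesoderm list, and Id2 among the other trophoblast transcription factors.

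Genes of the posterior streak, where Cdx2 also acts, fell with IWP2 for 6 of 12 analysed, and 1 rose. Over all genes 16.8% fell and 16.6% rose. The retinoic acid hydroxylase gene Cyp26a1 (-5.02), Nkx1-2 (-3.50) and Fgf8 (-2.70) led the falls, while Cdx2, Cdx1 and Cdx4 were not called. In ESCs 5 of the 12 were higher than with vehicle, led by Cdx1 (1.11), Sp5 (1.11) and Cdx4 (0.55), and 3 lower, led by Cyp26a1 (-5.01), Fgf8 (-4.07) and Wnt8a (-1.13). Over all genes 38.7% were higher and 27.9% lower.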
